A study of Mus musculus with 6 samples.

Results

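Runx1, Gata2, Tal1, Lyl1, Lmo2, Meis1, Hhex, Runx3, Spi1 and Ikzf1 are transcription factors and cofactors that set up blood formation from haemogenic endothelium or that run in mature blood cells. They were chosen by gene symbol, and all 10 were found among the 18482 genes of the count table. Polyadenylated RNA was sequenced from the ear skin of mice at postnatal day 21, all treated with tamoxifen, with 3 libraries from control mice and 3 from lecko mice, in which Kdr, the gene of VEGFR2, was targeted in the lymphatic endothelium. The controls were littermates according to the series description. The driver of the deletion, the strain and the tamoxifen schedule of these mice are not stated in the labels, which also name no animal behind a library, so that p-values measure only how these 6 samples vary. The study asks whether loss of VEGFR2 shifts lymphatic towards haematopoietic transcription, and these 10 genes lie at the centre of that question.

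Blood stem cells arise from a specialised endothelium, in which Tal1 and Lmo2 act early and Gata2 and Runx1 switch endothelial cells to a blood fate. TAL1 and the related LYL1 are basic helix-loop-helix factors that bind DNA with E proteins, and LMO2 bridges them to GATA factors through LDB1. RUNX proteins bind DNA with CBFB, and their 3 genes share an upstream promoter design. Several of these genes are not restricted to stem cells: Gata2 and Tal1 are expressed in mast cells and endothelium, Lmo2, Lyl1 and Hhex in vessels and blood cells, Runx1 in many leukocytes and in hair follicles, and Meis1 in many mesenchymal cells. Spi1 (PU.1) directs macrophage and other myeloid fates, Ikzf1 (Ikaros) is expressed across lymphoid, dendritic and other leukocytes, and Runx3 acts in T and NK cells and in Langerhans cells. On this background the 10 genes were divided into 7 stem and haemogenic regulators (Runx1, Gata2, Tal1, Lyl1, Lmo2, Meis1 and Hhex) and 3 regulators carried mainly by mature leukocytes (Runx3, Spi1 and Ikzf1).

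Stretches of the start regions are shown for the members whose windows held a match to a motif of a factor family in this set. The windows are RefSeq promoter sequences on GRCm38.p6, reaching from 250 bases before to 50 after a gene start, and 13 such windows covered 8 of the 10 genes, all but Lmo2 and Spi1. The upstream starts of Runx1 (chr16:92826031-92826048, minus strand, 26 to 43 bases after the start) and Runx3 (chr4:135120509-135120526, plus strand, 119 to 136 bases before the start) shared an identical run of 18 bases with the RUNX motif AACCACA 2 times in tandem. For Ikzf1 (chr11:11690030-11690139, plus strand) and Hhex (chr19:37434719-37434774, plus strand) the capitals mark the ETS motif AGGAAG on either strand, of the family that includes PU.1. For Tal1 (chr4:115056196-115056251, plus strand) they mark the GATA motif AGATAA on either strand.
Runx1: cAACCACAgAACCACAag
Runx3: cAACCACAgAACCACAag
Ikzf1: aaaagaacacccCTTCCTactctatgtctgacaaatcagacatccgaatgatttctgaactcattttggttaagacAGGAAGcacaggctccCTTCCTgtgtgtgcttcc
Hhex: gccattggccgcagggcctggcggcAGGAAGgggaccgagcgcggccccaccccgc
Tal1: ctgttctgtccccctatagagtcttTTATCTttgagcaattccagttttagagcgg

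The same run of 18 bases was found in 4 of 32851 windows, those of Runx1, Runx2, Runx3 and the gene model Gm16225. At least 2 matches to AACCACA were found in 0.204% of all windows and in 2 of the 13 windows of these genes. At least 3 matches to AGGAAG, as in the downstream Ikzf1 start, were found in 1.90% of all windows, and in 1 of the 13. A single match or more was found in 35.4% of all windows and in 3 of the 13, those of Ikzf1, Hhex and the upstream start of Runx1. A match to AGATAA was present in 11.2% of all windows and in 1 of the 13. The E-box CAGATG on either strand was present in 17.2% of all windows and in 1 of the 13, that of Tal1. These matches describe sequence letters, and counts per gene in this table do not separate the alternative starts of a gene.

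As a check of the labels, Kdr fell from 34.2 ± 3.81 to 10.4 ± 0.732 CPM, counts scaled to the size of the library (mean ± SD, n = 3 each), with every lecko library below every control library. Its log2 fold change was -1.72 (SE 0.10), adjusted p = 0.00026 (edgeR, Benjamini-Hochberg over all genes tested). Total counts per library lay between 17242921 and 17825135, so that depth was similar in both groups. Keratinocyte and lymphatic markers were present in every library, as the tissue label implies, with Krt14 at 3254 CPM and Prox1 at 20.2 CPM in controls. The libraries also differed in sex: 4 Y-linked genes gave 4272 and 4564 counts in controls 2 and 3 but 18 in control 1 and 4 to 21 in the lecko libraries. Control 1 is thus the control that matches the lecko libraries in sex, and genotype and sex cannot be fully told apart in this design.

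None of the 10 transcription factors passed the threshold over all genes. Across the table edgeR called 3 of 14856 genes tested (0.0202%), and all 10 of these genes passed the filter on low counts. At an unadjusted p under 0.05, 3 of the 10 were higher in lecko skin (Ikzf1, Spi1 and Meis1) and 0 were lower. Of all genes tested, 4.89% were higher and 3.68% lower by that measure. The same 3 had an unadjusted p under 0.05 by DESeq2, and Lmo2 joined them by limma-voom, while neither tool called any of the 10 after adjustment. In 4 of the 10 (Ikzf1, Spi1, Meis1 and Hhex) all lecko libraries lay above all control libraries, and no member showed the opposite. Across all genes tested 7.37% separated with lecko higher and 7.23% with lecko lower. The 10 genes were picked with earlier results of these data known, so these counts are a description. Log2 differences were positive for 9 of 10, with a median of 0.24, beside a median of 0.01 over all genes tested, of which 51.9% had a positive fold change.

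**Figure D1:**
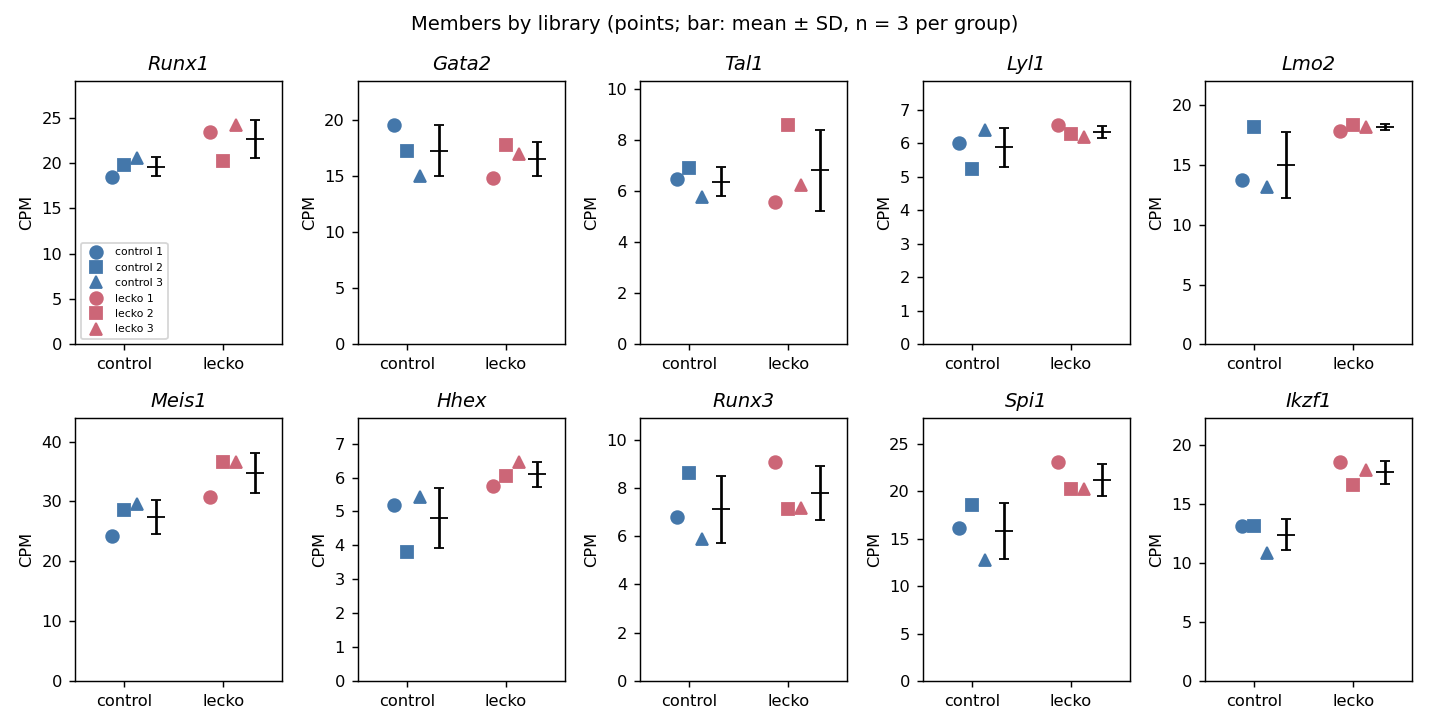
CPM (linear axis from 0) of each transcription factor in the 6 libraries; points are single libraries and bars are the mean ± SD of 3 libraries per group. The lecko points of Meis1, Hhex, Spi1 and Ikzf1 all lie above the control points, while those of the other 6 genes overlap.

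Among the leukocyte regulators, Ikzf1 showed the clearest separation. Ikzf1 (NCBI gene 22778, chromosome 11, 11684962 to 11772930, plus strand, GRCm38.p6) gave 13.1, 13.1 and 10.8 CPM in controls 1 to 3 and 18.6, 16.6 and 17.8 CPM in lecko libraries 1 to 3. Even the lowest lecko library, lecko 2, was above the highest control. The means were 12.4 ± 1.32 and 17.7 ± 0.981 CPM (SD, n = 3 each). The fitted fold was 1.43 (95% interval 1.21 to 1.69; log2 0.51, SE 0.11), with an unadjusted p of 0.00088, rank 30 among all genes tested, and adjusted p = 0.373 in edgeR. With sex as a covariate the log2 fold change was 0.43 (unadjusted p = 0.0283, edgeR), and against control 1 alone, a comparison chosen after seeing the data, it was 0.42 (unadjusted p = 0.0179, edgeR).

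Spi1, the myeloid master regulator (NCBI gene 20375, chromosome 2, 91082374 to 91115759, plus strand), gave 16.1, 18.6 and 12.7 CPM in controls 1 to 3. Its lecko libraries gave 23.1, 20.2 and 20.3 CPM. The groups did not overlap, although control 2 came within 1.67 CPM of the lowest lecko library. The fitted fold was 1.34 (95% interval 1.08 to 1.66; log2 0.42, SE 0.14), with an unadjusted p of 0.0123 and adjusted p = 0.504 in edgeR. Without lecko 1 the unadjusted p was 0.0515 at a log2 fold change of 0.35 by edgeR, and with sex as a covariate it was 0.104 at 0.39.

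Runx3 (NCBI gene 12399, chromosome 4, 135120645 to 135177990, plus strand), the third leukocyte regulator, did not follow. It gave 6.80, 8.62 and 5.88 CPM in controls 1 to 3 and 9.09, 7.12 and 7.15 CPM in the lecko libraries. The groups overlapped, with control 2 above lecko 2 and lecko 3. The fitted fold was 1.10 (95% interval 0.838 to 1.43), adjusted p = 0.845 in edgeR, and without lecko 1 the log2 fold change was -0.002. The interval holds both no change and the folds of Ikzf1 and Spi1.

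Among the stem and haemogenic regulators, Meis1 and Hhex were the members whose groups did not overlap. Meis1, a homeobox factor of the TALE class that partners HOX and PBX proteins and supports stem cell maintenance (NCBI gene 17268, chromosome 11, 18880428 to 19019651, minus strand), gave 24.2, 28.6 and 29.5 CPM in controls 1 to 3 and 30.8, 36.6 and 36.7 CPM in lecko libraries 1 to 3. Lecko 1 was the lowest lecko library and lay 1.29 CPM above control 3. The fitted fold was 1.27 (95% interval 1.08 to 1.48; log2 0.34, SE 0.10), with an unadjusted p of 0.00866 and adjusted p = 0.502 in edgeR. With sex as a covariate the log2 fold change of Meis1 was 0.52 (unadjusted p = 0.0050, edgeR), and against control 1 alone it was 0.51. Meis1 shares 896 exon bases with the antisense gene Gm16140 and 1029 with the same-strand gene model Gm37818 in GENCODE M21, neither of them in the count table, and whether the counting used strand is not stated.

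Hhex (NCBI gene 15242, chromosome 19, 37434841 to 37440731, plus strand), a homeobox factor of early endothelial and blood progenitors, gave 5.19, 3.80 and 5.42 CPM in controls 1 to 3. Its lecko libraries gave 5.76, 6.05 and 6.47 CPM. The groups were separated by 0.332 CPM, between control 3 and lecko 1, and control 2 was the lowest library. The fold of Hhex was 1.27 (95% interval 0.982 to 1.64), with an unadjusted p of 0.0651 and adjusted p = 0.606 in edgeR. Without control 2 its log2 fold change was 0.19 in place of 0.34. It was 0.23 with sex as a covariate (unadjusted p = 0.373, edgeR) and 0.22 against control 1 alone.

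Runx1 and Lmo2 were higher on average and overlapped between groups. Runx1 (NCBI gene 12394, chromosome 16, 92601466 to 92826074, minus strand), which drives the endothelial-to-haematopoietic switch, gave 18.5, 19.8 and 20.6 CPM in controls 1 to 3 and 23.4, 20.3 and 24.2 CPM in the lecko libraries. Lecko 2 alone fell within the control range. Its fold was 1.15 (95% interval 0.997 to 1.34; adjusted p = 0.589 in edgeR). Lmo2 (NCBI gene 16909, chromosome 2, 103957903 to 103981878, plus strand) gave 13.7, 18.2 and 13.2 CPM in controls 1 to 3 and 17.9, 18.4 and 18.2 CPM in lecko libraries. Control 2 stood at the level of the lecko libraries, which lay close together, and the other controls were lower. The fold of Lmo2 was 1.21 (95% interval 0.990 to 1.47; adjusted p = 0.596 in edgeR), and the log2 fold change of 0.27 became 0.43 without control 2 and 0.18 without control 3.

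Tal1, Lyl1 and Gata2, the DNA-binding members of the stem cell complex that LMO2 joins, overlapped between groups. Tal1 (NCBI gene 21349, chromosome 4, 115056426 to 115071755, plus strand) gave 6.46, 6.90 and 5.77 CPM in controls 1 to 3 and 5.59, 8.59 and 6.24 CPM in lecko libraries 1 to 3. Lecko 2 was its highest library and lecko 1 its lowest, so the lecko group spanned the controls. The fold of Tal1 was 1.07 (95% interval 0.809 to 1.41), and without lecko 2 its log2 fold change was -0.11. Lyl1 (NCBI gene 17095, chromosome 8, 84701423 to 84704716, plus strand) gave 5.997, 5.23 and 6.39 CPM in controls 1 to 3 and 6.55, 6.28 and 6.19 CPM in the lecko libraries, a fold of 1.08 (95% interval 0.879 to 1.32). Control 3 was above lecko 2 and lecko 3 for this gene, and its log2 fold change of 0.11 was 0.03 without control 2 and 0.17 without control 3.

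Gata2, required for haemogenic endothelium and kept in mast cells (NCBI gene 14461, chromosome 6, 88193891 to 88207032, plus strand), was the single member with a negative difference. It gave 19.6, 17.3 and 15.02 CPM in controls 1 to 3 and 14.8, 17.8 and 17.03 CPM in the lecko libraries, which overlapped widely. The fold of Gata2 was 0.957 (95% interval 0.794 to 1.15), and its log2 fold change of -0.06 was 0.03 without control 1, -0.24 with sex as a covariate and -0.25 against control 1 alone. Adjusted p-values of Gata2, Tal1 and Lyl1 were 0.898, 0.898 and 0.834 in edgeR. Whether these 3 genes differ from Ikzf1 in their response was not tested.

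**Figure D2:**
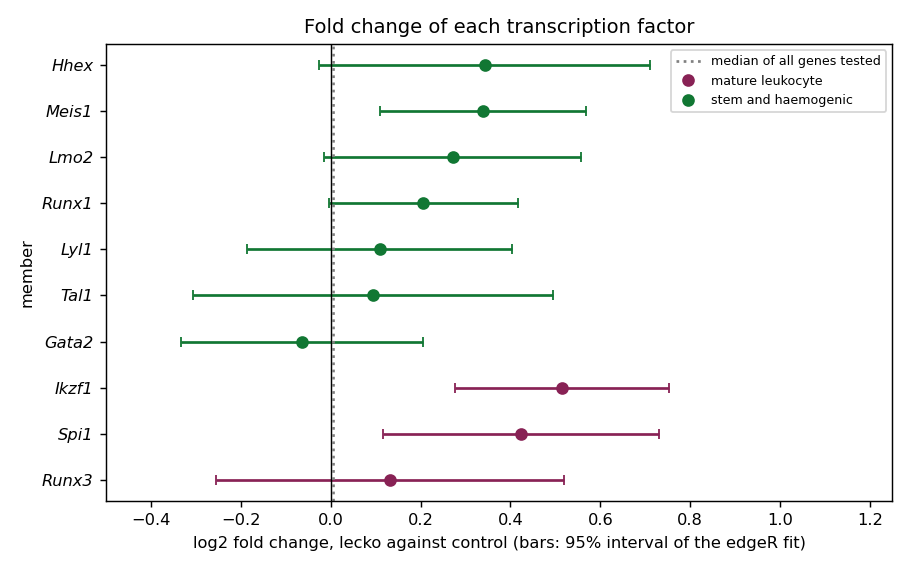
Log2 fold change of each transcription factor, lecko against control, from edgeR's fit over all genes; points are estimates, bars are 95% intervals and the dotted line is the median of all genes tested. The intervals of Ikzf1, Spi1 and Meis1 lie above 0 without adjustment for the number of genes tested, and those of the other 7 include 0.

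The 2 classes were set side by side without a test, since their members were assigned with results known. The median log2 difference was 0.44 over the 3 leukocyte regulators (0.14 to 0.51) and 0.20 over the 7 stem and haemogenic regulators (-0.06 to 0.35). The ranges overlapped, because 4 of the 7 (Meis1, Hhex, Lmo2 and Runx1) stood above Runx3. Summed CPM of the leukocyte regulators was 29.5 to 40.3 in controls and 44.0 to 50.8 in lecko libraries, and that of the stem and haemogenic regulators was 93.7 to 99.9 and 104.8 to 115.0. Both sums therefore separated the groups. The order of the class medians depended on where shared genes were placed: with Runx1 and Lyl1, which leukocytes also express, counted with the leukocyte regulators, the medians were 0.20 for that class and 0.28 for the remaining 5 stem and haemogenic genes.

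Levels between genes were compared per transcript length, as CPM per kilobase of the longest protein-coding transcript in GENCODE M21. In control skin Lmo2 was highest at 8.82 ± 1.62 and Spi1 next at 7.78 ± 1.44 CPM per kilobase (SD, n = 3 each), a gap smaller than their SDs. Gata2 followed at 4.85 ± 0.643, then Meis1 at 3.63 ± 0.374, Runx1 at 3.35 ± 0.177 and Lyl1 at 3.26 ± 0.328 CPM per kilobase. The gaps from Spi1 to Gata2 and from Gata2 to Meis1 exceeded the sum of the neighbours' SDs. The levels of Hhex (2.67 ± 0.489), Ikzf1 (2.395 ± 0.255), Runx3 (1.83 ± 0.360) and Tal1 (1.51 ± 0.136) formed the lower end, and no neighbouring pair from Meis1 downwards differed beyond that sum. In lecko skin Lmo2 (10.6 ± 0.145) and Spi1 (10.4 ± 0.819 CPM per kilobase) again led, and Ikzf1 at 3.42 ± 0.190 stood beside Hhex at 3.38 ± 0.199. Haemogenic and mature leukocyte regulators were interleaved in level.

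Leukocyte markers had positive differences like Spi1 and Ikzf1, and markers of several other cell types also differed in one direction, none of them past the threshold over all genes. In bulk skin, more cells of a type and more RNA per cell cannot be told apart. Of 12 pan-leukocyte genes, all 12 had a positive difference (median log2 0.37), 5 had an unadjusted p under 0.05, all of them higher, and 0 passed over all genes, with Ptprc, the CD45 gene, at 0.61 and Coro1a at 0.53 log2. Their summed level was 412.9 to 589.9 CPM in controls and 584.7 to 751.2 CPM in lecko libraries, and none of the 12 was at 0 in all libraries. Macrophage markers had a median log2 difference of 0.41 over 12 genes (Fcgr1 0.74, Cd68 0.44), dendritic and Langerhans markers 0.40 over 9 (Siglech 1.52, Clec10a 0.33) and T and NK markers 0.24 over 11 (Cd4 0.57, Klrb1c 0.87). No macrophage marker separated the groups (0 of 12), and without lecko 1 the log2 fold change of Fcgr1 was 0.44 (unadjusted p = 0.119, edgeR). Siglech, at 3.35 with sex as a covariate, Cd4, at 0.37 without control 3, and Klrb1c, at 0.49 without control 3, also varied with the libraries used. Siglech and Klrb1c were near the floor, with means of 0.630 and 0.575 CPM in controls and 1.83 and 1.06 CPM in lecko libraries. Mast cell markers, of a cell type that carries Gata2 and Tal1, had a median of 0.04 over 11 tested genes (Hpgds 0.34, Cpa3 0.14), with sums of 580.3 to 684.4 CPM in controls and 639.4 to 651.2 CPM in lecko libraries. Pan-endothelial markers had a median of -0.25 over 12 (Cldn5 -0.46, Robo4 -0.53), 8 of them lower before adjustment (p under 0.05), and sums of 537.0 to 578.2 in controls and 464.6 to 507.7 CPM in lecko libraries. Lymphatic markers had a median of -0.10 over 9 (Ccl21a -0.58, Nrp2 0.24), with 6 negative and 3 positive. Their sums were 407.8 to 458.6 CPM in controls and 371.4 to 391.8 CPM in lecko libraries. Erythroid genes had a median of 0.66 over 8 (Hbb-bs 0.78, Alas2 0.59), with sums of 851.2 to 1283 and 1394 to 2455 CPM. Skeletal muscle markers were negative in 8 of 8 (median -0.31), 5 of them at an unadjusted p under 0.05 and 4 without overlap, with sums of 5487 to 6157 CPM in controls and 4070 to 5242 CPM in lecko libraries. Basal keratinocyte markers were negative in 7 of 7 (median -0.11), with sums of 9917 to 11125 and 9657 to 10221 CPM. Fibroblast markers, the list most like Lmo2, were positive in 6 of 7 (median 0.22), 2 of them at an unadjusted p under 0.05, with sums of 13873 to 22326 and 16599 to 18086 CPM. Medians were 0.30 over 5 neutrophil, 0.03 over 10 hair follicle and -0.03 over 4 platelet and megakaryocyte genes. The part of all these markers in the differences of the transcription factors was not tested.

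Relative to the pan-leukocyte markers, the difference of Spi1 was close to 0. Log2 Spi1 minus the mean log2 CPM of the 12 markers averaged -0.96 ± 0.033 for controls and -0.93 ± 0.111 for lecko (SD, n = 3 each), a difference of 0.03. For Ikzf1 the same measure was -1.30 ± 0.167 and -1.19 ± 0.155, a difference of 0.11 that was smaller than either SD. Runx3 was lower by this measure, at -2.10 ± 0.052 in controls and -2.37 ± 0.035 in lecko libraries, without overlap. The share of all genes that separate on this scale was not computed. Gata2 differed by -0.47 and Meis1 by -0.07 relative to leukocyte markers, each with overlapping groups. Before this scaling their log2 differences were -0.06 and 0.34. All 7 stem and haemogenic regulators were negative on this scale, as was Runx3. The leukocyte mean was itself higher on average in lecko libraries. It was 5.188 to 5.596 log2 CPM there and 4.643 to 5.218 in controls. The leukocyte shift lowers every gene of the table alike, so the negative signs are not particular to these genes. Relative to the 12 pan-endothelial markers all 10 genes had positive differences, from 0.17 for Gata2 to 0.74 for Ikzf1, and Meis1 and Hhex stood at 0.56 and 0.58. The mean of these 12 markers was itself lower in lecko libraries (4.96 to 5.12 log2 CPM) than in controls (5.22 to 5.29). This shift raises every gene of the table alike, so the positive signs are not particular to the 10 genes.

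**Figure D3:**
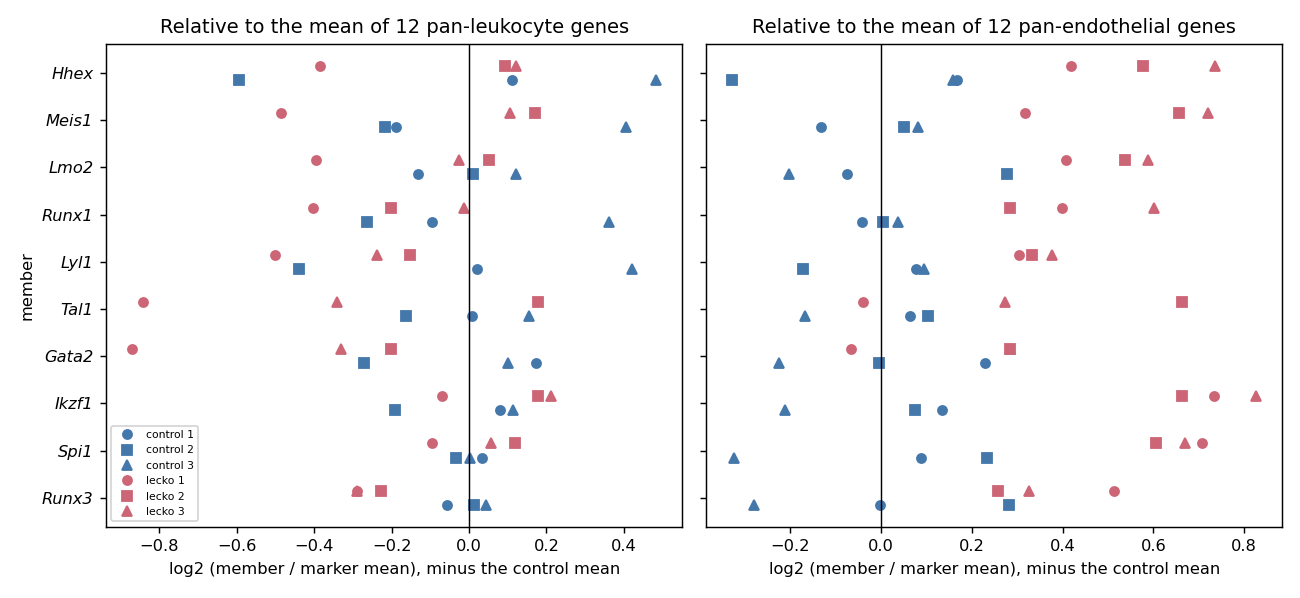
Log2 ratio of each transcription factor to the mean of 12 pan-leukocyte markers (left) and 12 pan-endothelial markers (right) in each library, with the control mean set to 0; each point is 1 library. On the left Spi1 and Ikzf1 libraries of both groups mix around 0 and Runx3 lecko libraries lie below the controls, while on the right the lecko libraries of 7 genes (Ikzf1, Spi1, Meis1, Hhex, Runx1, Lyl1 and Lmo2) lie above all controls and those of Gata2, Tal1 and Runx3 overlap with them. The leukocyte mean was itself higher on average in lecko libraries, which lowers any gene alike on the left. The endothelial mean was itself lower in lecko libraries, which raises any gene alike on the right. The share of all genes that separate was not computed on either scale.

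The 3 leukocyte regulators all had a Pearson r of 0.78 or more over the 6 libraries with the pan-leukocyte, macrophage, dendritic and T and NK lists, and of the 7 stem and haemogenic members Lmo2 came nearest, at 0.71 to 0.86. This likeness was not particular to leukocyte lists. With the fibroblast list r was 0.896 for Runx3, 0.875 for Spi1 and 0.669 for Ikzf1. With the basal keratinocyte list it was -0.813, -0.931 and -0.864 in the same order. These values describe 6 libraries that include the group difference, and no test was made of them. Spi1 was most like the pan-leukocyte mean (Pearson r = 0.973, Spearman rho 0.943) and the macrophage mean (r = 0.954, rho 0.829). Ikzf1 was most like pan-leukocyte (r = 0.877, rho 0.829) and dendritic and Langerhans markers (r = 0.873, rho 0.829). Runx3 was most like macrophage (r = 0.934, rho 1) and T and NK markers (r = 0.900, rho 0.943). Lmo2, a stem and haemogenic member, was most like fibroblast (r = 0.925, rho 0.714) and dendritic markers (r = 0.861, rho 0.429). Runx1 was most like dendritic (r = 0.799, rho 0.543) and mast cell markers (r = 0.590, rho 0.429), and for both genes rho was below r. Meis1 was most like erythroid genes (r = 0.965, rho 0.943) and then dendritic markers (r = 0.567, rho 0.486). Globins make up most of the summed erythroid RNA, but the mean used here weighs all 8 tested erythroid genes alike. Hhex was most like hair follicle markers (r = 0.832, rho 0.600) and erythroid genes (r = 0.637, rho 0.886). Its negative r with the lymphatic list was larger in size (r = -0.983, rho -1). Lyl1 was most like neutrophil (r = 0.703, rho 0.600) and hair follicle markers (r = 0.636, rho 0.086). Tal1, with erythroid genes (r = 0.425, rho -0.029) and fibroblast markers (r = 0.335, rho 0.257) highest, followed none of the lists closely. Nor did Gata2, with basal keratinocyte (r = 0.343, rho 0.257) and lymphatic markers (r = 0.263, rho 0.257) highest.

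**Figure D4:**
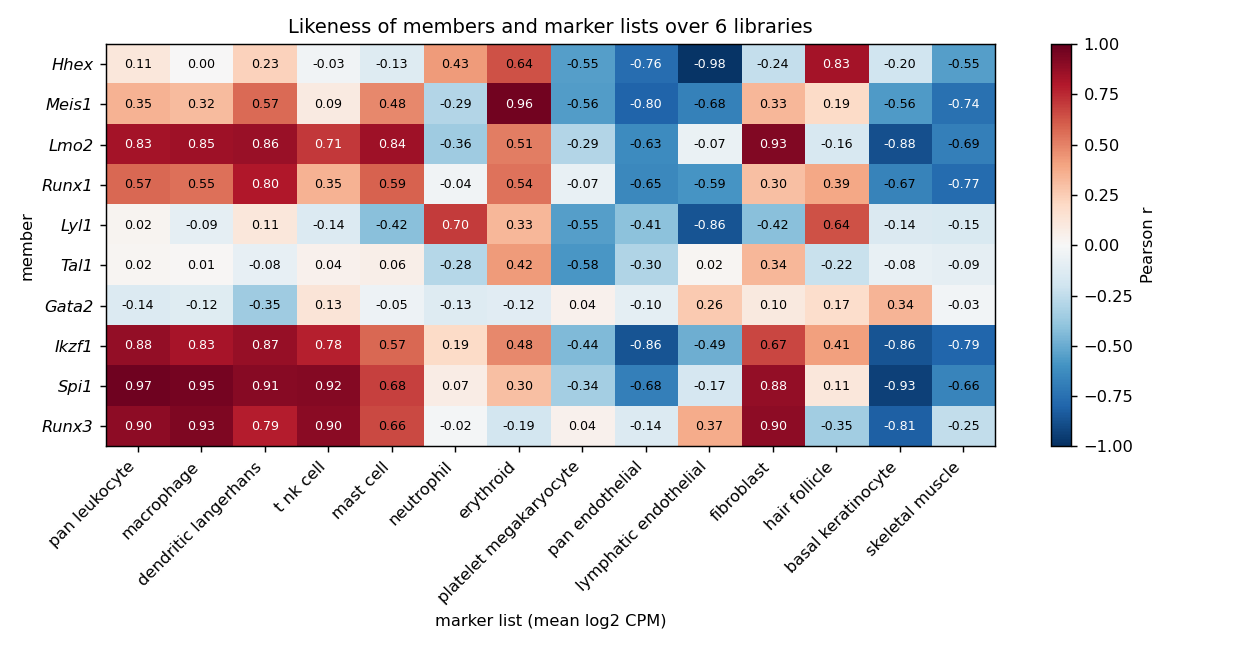
Pearson r between log2 CPM of each transcription factor (rows) and the mean log2 CPM of each marker list (columns) over 6 libraries, with the value printed in each cell. Ikzf1, Spi1 and Runx3 have r of 0.78 or more with the pan-leukocyte, macrophage, dendritic and T and NK lists, whereas Gata2 and Tal1 stay below 0.5 with every list. The fibroblast list is also close to Runx3 (0.896) and Spi1 (0.875), and less so to Ikzf1 (0.669).

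The single genes most like each member, among those whose log2 CPM averaged 1 or more, had r of 0.974 or more in all cases. Those nearest to Spi1 were Clec4n (the Dectin-2 gene of myeloid cells), Ppt1 and Zc3h7b, with r of 0.998, 0.997 and 0.995. Nearest to Ikzf1 were Cab39, Ctsf and Pdgfd (0.993, 0.993 and 0.991), and nearest to Runx3 were Rhoa, Dok1 and Fmod (0.997, 0.996 and 0.996). Meis1 was nearest to Tbxa2r, Klf7 and Hspa14 (0.998, 0.992 and 0.988), Lmo2 to Zfp287, Adgra2 and Mmp2 (0.995, 0.993 and 0.992) and Hhex to Zfp120, Gtf3c2 and Ubxn2b (0.990, 0.988 and 0.982). Runx1 was nearest to Fam8a1, Cyfip1 and Galk2, Gata2 to Cct5, Prkag3 and Cog4, Tal1 to Med27, Pcif1 and Phlda1, and Lyl1 to Dpcd, Gmnn and Kif3c. All 10 genes had such neighbours among the 14856 genes tested, and the values carry no test. By Spearman rho Adgra2 (0.486) and Mmp2 (0.714) were less like Lmo2, and all other neighbours had 0.886 or more.

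The partners of these factors showed small differences. Of 18 partner genes (RUNX, LMO2, TAL1, MEIS1 and GATA cofactors and relatives), 13 had a positive difference (median log2 0.10), 3 had an unadjusted p under 0.05, all higher, and 0 passed over all genes by edgeR. Among them were Tcf12 and Tcf4, E proteins that pair with TAL1 and LYL1 (log2 fold changes 0.22 and 0.16). Cbfb, the shared subunit of RUNX factors, was at 142.7 ± 2.69 and 150.6 ± 5.28 CPM, a log2 fold change of 0.08, and Ldb1, the bridge of the TAL1 complex, at -0.05. Cbfb and Ldb1 were named for their roles outside the rule for named genes.

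Other haemogenic and blood lineage factors held values in both directions. Of 24 listed, 22 were in the count table and 17 were tested. Among those tested, 13 were positive (median log2 difference 0.18). Before adjustment 1 was higher and 1 lower (p under 0.05, edgeR), and 0 passed over all genes. Mecom, a stem cell factor also found in endothelium, was the higher one, with 10.4 ± 2.96 CPM for controls against 14.2 ± 0.393 for lecko libraries (log2 fold change 0.44). That value of Mecom was 0.25 without control 1, its lowest library (unadjusted p = 0.115, edgeR), 0.67 without control 2 and 0.90 with sex as a covariate. Gata1, the erythroid, megakaryocyte and mast cell factor, was the lower one, at 1.03 ± 0.232 and 0.528 ± 0.172 CPM (log2 -0.96). Gata1 was near the floor, and its unadjusted p was 0.0759 by DESeq2 and 0.0849 without control 1 (edgeR). With sex as a covariate its log2 fold change was -1.25 (unadjusted p = 0.0271, edgeR). Etv2, an early inducer of the haemato-endothelial lineage, had no count in any library, and Gfi1b, Klf1, Hoxa5 and Hoxa7 did not pass the filter. Hoxa9 and Hoxa10 were not tested either. Meis2, the relative of Meis1, had a log2 fold change of 0.18 and Zfp521 0.25, both with an unadjusted p above 0.05.

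Of 30 other leukocyte factors, 24 were tested, 15 were positive (median log2 difference 0.11), 4 had an unadjusted p under 0.05, all higher, and 0 passed over all genes. Irf8, a partner of PU.1 in monocyte and dendritic cell development, averaged 5.76 ± 0.293 CPM over the controls and 9.17 ± 0.358 over the lecko libraries (SD, n = 3 each). Its log2 fold change was 0.67 (SE 0.11; adjusted p = 0.315 in edgeR). Id2 (0.26), which supports dendritic and innate lymphoid cells, and Irf4 (0.53), a lymphoid and dendritic factor, were also among them. Control 3 was lowest for Irf4, whose log2 fold change was 0.29 without it (unadjusted p = 0.055, edgeR). With sex as a covariate it was 0.28 (unadjusted p = 0.411, edgeR). Known target and lineage genes of the leukocyte regulators were positive in 12 of 12 tested of 15 listed (median 0.41), with 6 higher at an unadjusted p under 0.05 and 0 passing over all genes. Examples were Itgal (0.76), Csf3r (0.87), the kinase gene Btk (0.42) and Vav1 (0.38). Csf3r was at 5.81 CPM in lecko 1 against 3.11 and 3.23 CPM in lecko 2 and lecko 3, and its log2 fold change was 0.50 without lecko 1. The log2 fold change of Vav1 was 0.26 without lecko 1 (unadjusted p = 0.118, edgeR). With sex as a covariate it was also 0.26 (unadjusted p = 0.254, edgeR). This list is not separate from the cell markers, since 6 of its 15 genes also stand in a marker list.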

How the data were processed

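The authors deposited 1 table of estimated counts per gene, unscaled, for 6 ear skin libraries. This unit was inferred from the fractional entries (9.60 to 10.52% in each library). HISAT2 2.2.1, Bowtie2 2.4.5, RSEM 1.3.1 and GRCm38.p6 are listed in the submitters' processing notes, with no role for each tool, annotation or strand setting stated there. Groups came from the sample titles.

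Values were rounded to whole counts and genes were kept by filterByExpr (minimum count 10, minimum total 15), which dropped 3626 and kept 14856. After TMM scaling, a robust quasi-likelihood model in edgeR 4.0.16 (R 4.3.3) with group as its term gave p-values, adjusted by Benjamini-Hochberg (threshold 0.05). For log2 CPM the prior count was 2, and list medians summarise differences between mean log2 CPM of lecko and control. Libraries of the same group were not duplicates: their chi-square per degree of freedom was 7.34 to 15. Alternatives were DESeq2 1.42.0, limma-voom (limma 3.58.1), other scalings and filters, a fit without robust estimation, a replicate block, sex as a covariate (4 Y-linked genes above 10 CPM) and leaving out each library. The scripts were tested on simulated data.

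The members, their classes and the gene lists were chosen with earlier results of these data known. Named genes are the 10 members, Kdr, up to 4 genes with the smallest p of each list described, and for each member its 2 most similar marker lists and 3 most similar genes. Lists of other tissue markers are given by counts, medians and sums, with no gene named. Some genes that this rule selects are not reported here.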

Additional observations from a re-analysis of the deposited data

How the results depend on the processing

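No alternative brought any of the 10 transcription factors past the threshold over all genes, and their adjusted p ranged from 0.0939 (Ikzf1, DESeq2) upwards. Of 669 values for 42 single genes under 16 alternatives, 663 kept direction and side of the threshold. With single libraries left out, Gata2 ranged from -0.157 to 0.0283 (reversed without control 1), Tal1 from -0.108 to 0.210 (reversed without lecko 2) and Runx3 from -0.0021 to 0.292 (reversed without lecko 1). Ptprc (0.60) and Ccl21a (-0.59) were called by DESeq2 and Cd68 without control 2 (0.66). Genes called over the whole table numbered 24 higher and 8 lower by DESeq2, against 2 and 1 by edgeR, and ranged from 2 to 36 higher and from 1 to 5 lower with single libraries left out, 36 without control 2 and 5 without control 1. With single libraries left out the median of the stem and haemogenic genes ranged from 0.15 (without lecko 3 or control 1) to 0.28 (without lecko 2), and that of the leukocyte genes from 0.29 (without control 3) to 0.55 (without control 2). Counting Runx1 and Lyl1 with the leukocyte genes gave medians of 0.28 and 0.20. The causes were not tested.

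Whether the replicate numbers pair the libraries was not settled. Correlations of same-numbered deviations were 0.337, -0.072 and 0.035, and those of other pairs ranged from -0.285 to 0.234. With a replicate block edgeR called 2 genes higher and 1 lower and none of the 10, and the class medians were 0.20 and 0.44. The block changed the unadjusted p of Meis1 from 0.00866 to 0.00193 and that of Ikzf1 from 0.00088 to 0.00194 (edgeR). The comparison against control 1 alone was chosen after seeing the data and assumes that the lone control varies like the lecko libraries.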
